A study of Mus musculus with 36 samples.

Results

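RM-1-BM mouse prostate cancer cells that carried the SPOP mutant F133V and received olaparib were compared with RM-1-BM cells that carried an empty vector and received the vehicle DMSO. Both were grown opposite RAW264.7 mouse macrophages in a transwell, in which the cells share medium through a membrane. The libraries were chosen by their labels: 3 F133V cocultures with olaparib (F133V+RAW264.7+Ola) and 3 vector cocultures with DMSO (EV+RAW264.7+DMSO), 6 of the 36 libraries of the series, each holding RNA of the cancer cells only. The question was which genes lay at the level of the untreated vector cells once the mutant cells had the drug, and which stayed apart from it. Genotype and drug differ together in this comparison. The gap before the drug was therefore taken from 3 F133V cocultures with DMSO against the same vector libraries, and the drug's effect on vector cells from 3 vector cocultures with olaparib. The same groups were also grown without macrophages; their levels enter no coculture fold change, but all 24 cancer libraries share 1 estimate of the spread. F133V and vector cells are transduced derivatives of 1 line, and the promoter driving the mutant, the number of clones, and the dose and duration of olaparib are not stated in the labels. Nor do they say whether the 3 libraries of a group were separate cultures, so the p-values cover the spread between libraries, which may be technical.

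SPOP is the part of a CUL3 ubiquitin ligase that picks proteins for degradation, and mutations in its substrate-binding domain, F133V among them, are frequent in prostate cancer. KEAP1 uses the same CUL3 scaffold to hold down NRF2, the transcription factor that drives glutathione and thioredoxin enzymes. Olaparib blocks PARP enzymes, which mark DNA breaks, and is most toxic to cells that repair DNA poorly by homologous recombination. Sterol synthesis, chaperones of the endoplasmic reticulum and interferon-stimulated genes are each switched by a small set of dedicated factors (SREBP2 for sterols, ATF6 and XBP1 for chaperones), so their genes tend to move as groups.

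Spop itself (chromosome 11, 95414080 to 95493406, plus strand, GRCm38) read 114, 115 and 112 CPM in F133V cells with olaparib and 123, 124 and 126 CPM in vector cells with DMSO. CPM are counts per 1000000 gene counts, after TMM scaling. The difference was small, at −0.13 ± 0.03 on the log2 scale (± SE), and passed the test (adjusted p = 0.00043, edgeR quasi-likelihood test with Benjamini-Hochberg adjustment, as for all adjusted p below). In the other coculture groups it read 93.6, 97.2 and 99.4 CPM in F133V cells with DMSO and 119, 119 and 119 CPM in vector cells with olaparib. In monoculture it averaged 103 ± 6.75 CPM in F133V cells with olaparib, 106 ± 1.57 in F133V cells with DMSO, 111 ± 1.64 in vector cells with olaparib and 117 ± 2.65 in vector cells with DMSO (SD, n = 3 each). A gene total does not show the mutant base, so it does not check the genotype labels.

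The 6 libraries held 34340043 to 43062440 gene counts (median 40801586), and 15962 genes were tested. The summed level of 16 macrophage markers was 14.2 to 15.2 CPM in F133V cells with olaparib and 23.2 to 25 CPM in vector cells with DMSO, against 15281 to 17588 CPM in the macrophages of those cocultures. Vim, the intermediate filament of mesenchymal cells, read 1319, 1318 and 1309 CPM in F133V cells with olaparib and 1114, 1094 and 1105 CPM in vector cells with DMSO. The 8 genes listed for the mesenchymal-like line, Vim among them, summed to 7971 to 8044 CPM in F133V cells with olaparib and 7766 to 7883 CPM in vector cells with DMSO, with 3 members higher and 4 lower. Structural RNA, small nuclear and related genes, summed to 101 ± 2.87 CPM in F133V cells with olaparib and 65.2 ± 2.2 CPM in vector cells with DMSO, beside 477 ± 19.3 CPM in F133V cells with DMSO (SD, n = 3 each). Mitochondrially encoded messengers summed to 17962 ± 312 CPM in F133V cells with olaparib and 22524 ± 499 CPM in vector cells with DMSO. The part of these differences in the gene results was not tested. With structural RNA, mitochondrial ribosomal RNA and Gm26917 taken out before scaling, 9295 genes were called. In bulk RNA, fewer cells that express a gene and less of its RNA per cell cannot be told apart.

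Of the 15962 genes, 9339 (58.5%) differed at an adjusted p under 0.05, 4564 (28.6%) higher and 4775 (29.9%) lower in F133V cells with olaparib. Most of these differences were small: 1386 genes (8.68%) were at least 2-fold apart, 490 (3.07%) higher and 896 (5.61%) lower. Before the drug the gap was far wider, with 5005 genes (31.4%) at least 2-fold apart between F133V and vector cells with DMSO. Those 5005 genes were sorted by where olaparib left them. A gene counted as back at the vector level when the 95% interval of its remaining difference lay within 1.5-fold either way, and as still apart when the difference was called, at least 2-fold and in the same direction as before.

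By that rule 1730 genes (34.6%) were back at the vector level, 930 (18.6%) were part way, 946 (18.9%) were still apart and 109 (2.18%) had gone past the vector level by at least 1.5-fold. The other 1290 (25.8%) were unresolved, with a median of 0.681 CPM in their highest group; an interval that was wide or that straddled the 1.5-fold limit left a gene there. Among the genes still apart, the gap had narrowed for 440, had not detectably moved for 431 and had widened for 75. The classes differed in expression level, with a median of 33.8 CPM in the highest group for genes back and 1.79 CPM for genes still apart. For the 431 not moved it was 0.616 CPM, where a movement is hard to detect. Genes lower in F133V cells before the drug were back in 35.2% of cases, and genes higher in 33.6%. The count of genes back depends on the width chosen: it was 801 under a narrower limit and 2851 within 2-fold, and 156 of the 1674 genes that started at least 4-fold apart were back. A further 60 of all 15962 genes (0.376%) lay within 1.5-fold before the drug and were at least 2-fold apart with it. For the gene lists that follow, the shares over all genes to set beside each count are 28.6% higher, 29.9% lower and, among genes 2-fold apart before the drug, 34.6% back. These classes are descriptions, since the gap before the drug and the gap after it share the vector libraries. The rule for back is strict: in simulated data, 61.3% of the genes set to the vector DMSO level were classed back.

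**Figure D1:**
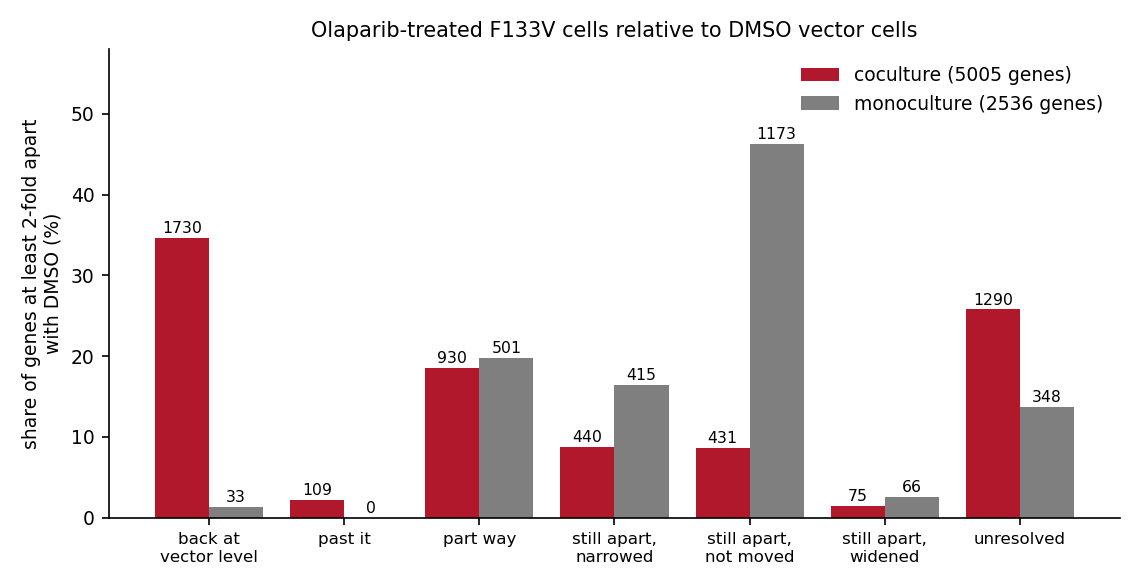
Share of genes at least 2-fold apart between F133V and vector cells with DMSO (y axis, percent) that fell in each class once the F133V cells had olaparib (x axis), in coculture (5005 genes, red) and monoculture (2536 genes, grey), with gene numbers above the bars. In coculture 1730 genes were back at the vector level, against 33 in monoculture, where 1173 had not detectably moved.

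The position of each library between the DMSO groups was also measured. It covered 2517 of the 5005 coculture genes, those averaging at least 5 CPM in F133V cells with olaparib or in either DMSO group. Vector cells with DMSO were set at 0% and F133V cells with DMSO at 100% on the log2 scale. The median gene stood at 21.5%, 21.4% and 21.3% in the 3 F133V libraries with olaparib, with the middle range of genes between 3.8% and 40.2%. Vector cells with olaparib stood at −4.52%, −4.73% and −4.58%. In monoculture the F133V libraries with olaparib stood at 83.6%, 82.9% and 83.2% over 942 genes, cut by the same level from 2536. The 3 libraries of each group lay close together, and the coculture and monoculture F133V libraries with olaparib did not overlap. Each position was measured over the genes apart in that culture condition, so the coculture and monoculture gene sets differ.

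**Figure D2:**
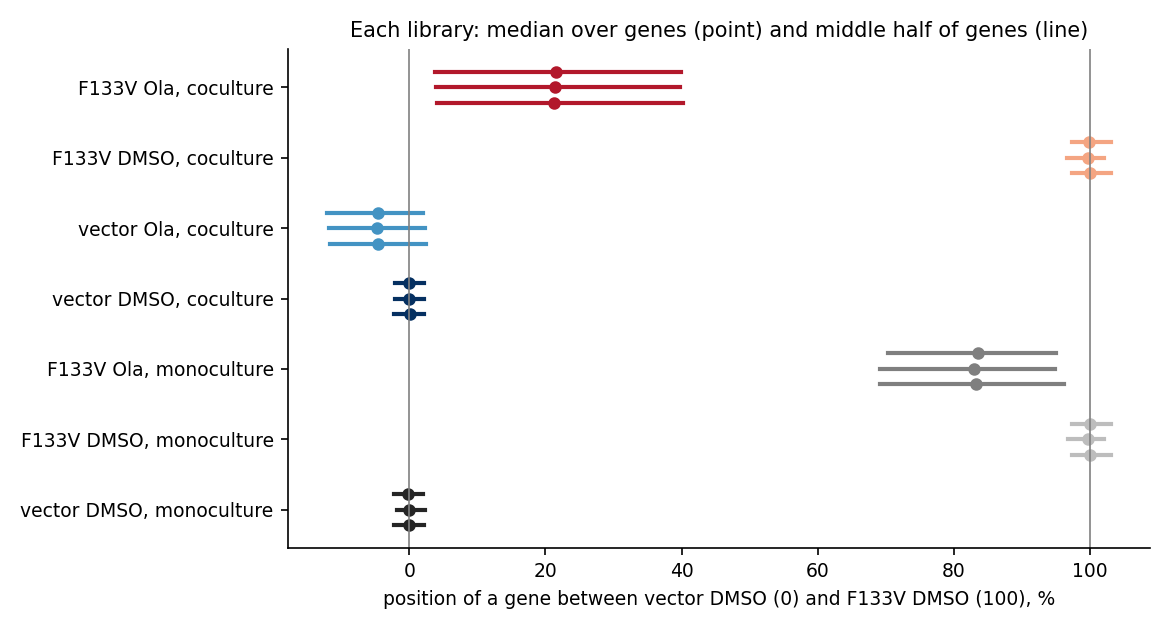
Position of each library (points, median gene; bars, lower to upper quartile of genes) between vector cells with DMSO (0%) and F133V cells with DMSO (100%), in percent of the log2 gap, for coculture (2517 genes) and monoculture (942 genes). F133V libraries with olaparib sit at 21.3% to 21.5% in coculture and at 82.9% to 83.6% in monoculture.

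The NRF2 pathway was among the groups that came back. Before the drug its 27 tested target and detoxification genes had a median log2 difference of 0.90 between F133V and vector cells, and with olaparib the median was 0.25, beside −0.01 over all genes tested. Of the 27 genes, 14 were higher and 8 lower in F133V cells with olaparib, and of the 15 that had been at least 2-fold apart, 8 were back, beside 34.6% of all genes so far apart, 4 were part way and 3 still apart. Gclm encodes the regulatory subunit of the enzyme that starts glutathione synthesis. It read 31.7, 31.2 and 30.7 CPM in F133V cells with olaparib, 332, 353 and 332 CPM in F133V cells with DMSO and 25.3, 26.3 and 27.1 CPM in vector cells with DMSO. The gap of 3.69 ± 0.03 before the drug was thus 0.25 ± 0.04 with it (adjusted p = 9.5e-07), with no overlap between the libraries but a fold of only 1.19.

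Thioredoxin reductase 1, Txnrd1, read 353, 344 and 347 CPM in F133V cells with olaparib, 1869.5, 1909.7 and 1844 CPM in F133V cells with DMSO and 255, 252 and 257 CPM in vector cells with DMSO (0.45 ± 0.02 with the drug, 2.88 ± 0.02 before it). Gsr, which regenerates glutathione, read 60.2, 58.3 and 56.3 CPM in F133V cells with olaparib and 56.6, 58.7 and 56.9 CPM in vector cells with DMSO, and these libraries overlapped (95% interval of the log2 difference −0.05 to 0.09), after 249, 261 and 249 CPM in F133V cells with DMSO. Genes that control the pathway followed the same order: Sqstm1, whose protein p62 sequesters KEAP1, and Bach1 and Mafg, which share NRF2's binding sites, were all back, at 0.39 ± 0.02, 0.44 ± 0.03 and 0.42 ± 0.02 against gaps of 1.24 ± 0.02, 1.77 ± 0.03 and 1.43 ± 0.02 before the drug. Keap1 and Nfe2l2, the gene of NRF2, differed by 0.02 ± 0.04 and −0.01 ± 0.03 with the drug and did not pass the test, with intervals of −0.05 to 0.09 and −0.06 to 0.04.

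Not every target followed. Slc7a11, the cystine importer that feeds glutathione synthesis, read 666, 651 and 657 CPM in F133V cells with olaparib, 2045, 2039.9 and 2113 CPM in F133V cells with DMSO and 304, 321 and 316 CPM in vector cells with DMSO, so 2.1-fold remained (1.07 ± 0.03, adjusted p = 5.7e-29). Gclc, the catalytic partner of Gclm, stayed 1.88-fold higher and Hmox1, the heme-degrading enzyme, 1.6-fold higher. Nqo1, a quinone reductase and one of the best-known NRF2 targets, ran the other way. It read 184, 186 and 180.1 CPM in F133V cells with olaparib, 75.1, 82 and 77.9 CPM in F133V cells with DMSO and 87.6, 92.3 and 90.1 CPM in vector cells with DMSO, little apart before the drug (−0.20 ± 0.03) and 2.04-fold higher with it (1.03 ± 0.03, adjusted p = 2.9e-27). Ephx1, an epoxide hydrolase, was 4.57-fold lower with the drug and had been lower before it.

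The promoters of these genes were searched for the core of the antioxidant response element, TGACNNNGC, on either strand of the 250 bases before the start site in the RefSeq promoter table (GRCm38.p6). Of the 22 targets matched in the table, 6 held it (27.3%), against 13.9% of the 10039 matched symbols of tested genes. The stretches around the match are shown for the 2 genes with the values above, because both came back from a large gap. Some other targets with the match had been under 2-fold apart and lay above or below the vector level with the drug. Capitals mark the match, which is a description and not a site.
Gclm (chr3:122245408-122245446, plus strand): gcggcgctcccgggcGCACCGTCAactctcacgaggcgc
Txnrd1 (chr10:82859099-82859137, plus strand): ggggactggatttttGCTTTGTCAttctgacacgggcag

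Interferon-stimulated genes came back from below. Their 36 tested members had a median log2 difference of −1.54 before the drug and −0.03 with it, where 10 were higher and 12 lower in F133V cells with olaparib, near the shares over all genes (28.6% and 29.9%). Of the 27 that had been at least 2-fold apart, 13 were back, beside 34.6% of all genes so far apart, 4 part way, 4 still apart and 6 unresolved. Ddx58, the RNA sensor RIG-I, read 34.9, 33.1 and 33.3 CPM in F133V cells with olaparib, 13.1, 13.7 and 11.6 CPM in F133V cells with DMSO and 35.9, 35.3 and 37.9 CPM in vector cells with DMSO. The remaining difference was −0.11 ± 0.05 (adjusted p = 0.044), with the F133V libraries just below all vector libraries, and the call was lost in 12 of 17 alternatives, 7 of which left out 1 library (values −0.11 to −0.08). Parp14, an interferon-induced ADP-ribosyltransferase, read 10.2, 9.82 and 10 CPM in F133V cells with olaparib against 8.46, 8.73 and 8.94 in vector cells with DMSO (0.20 ± 0.08, adjusted p = 0.03), a call that also rested on single libraries.

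Of 14 tested interferon receptors and signal transducers, 6 were higher and 6 lower (median −0.09, from −0.64), and of the 6 that had been at least 2-fold apart 3 were back and 3 part way. Stat2 was 1.29-fold lower in F133V cells with olaparib (−0.37 ± 0.04, from a gap of −1.40 ± 0.04), and the interferon-γ receptor chains Ifngr1 and Ifngr2 were 1.69-fold and 1.58-fold lower. Irf9, the partner of Stat2 in the nucleus, was higher both with the drug (0.29 ± 0.05) and before it (0.14 ± 0.05). Irf7, the factor that amplifies type I interferon, read 4.55, 5.43 and 4.27 CPM in F133V cells with olaparib and 4.15, 3.76 and 3.81 CPM in vector cells with DMSO (0.28 ± 0.12, adjusted p = 0.047), close to the threshold, and was lost in 7 of 17 alternatives (0.17 to 0.31). Isg15, a ubiquitin-like modifier, had risen above the vector level, at 7.13, 6.27 and 6.73 CPM in F133V cells with olaparib, 1.74, 1.78 and 1.6 CPM in F133V cells with DMSO and 3.44, 3.43 and 3.05 CPM in vector cells with DMSO (2.02-fold, adjusted p = 4.5e-10).

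Several oligoadenylate synthetase genes stayed apart. Oas3, which makes the messenger that activates RNase L, read 1.39, 1.32 and 1.28 CPM in F133V cells with olaparib, 0.329, 0.473 and 0.285 CPM in F133V cells with DMSO and 13.8, 14.1 and 14.5 CPM in vector cells with DMSO, so it was still 10.6-fold lower (−3.41 ± 0.14, adjusted p = 7.8e-25). Its relatives Oas2 and Oasl1 were at −2.68 and −2.64 on the log2 scale. Oasl2, of the same family, was instead above the vector level (0.45 ± 0.11, from −1.85 ± 0.17 before the drug). The fourth gene of the list still apart was Epsti1, at −1.30 ± 0.21. The interferon-stimulated response element was searched as GAAANNGAAA on either strand of the same 250 bases. It was found in 6 of the 27 matched members (22.2%) and in 3.01% of the 10039 symbols, and in genes at opposite ends of the response alike: Isg15 ended above the vector level and Oas3 far below it, and each promoter held the letters, shown in capitals.
Isg15 (chr4:156200860-156200911, minus strand): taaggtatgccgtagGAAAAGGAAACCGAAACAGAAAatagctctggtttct
Oas3 (chr5:120777710-120777749, minus strand): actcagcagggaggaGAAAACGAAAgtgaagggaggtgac

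Heat shock chaperone genes, listed with the mitochondrial chaperonins Hspd1 and Hspe1 and the heat shock factor Hsf1, fell with the drug. All 15 tested members were higher in F133V cells before the drug (37.4% of all genes were), with a median of 0.91, and all 15 were lower in F133V cells with olaparib than in F133V cells with DMSO (37.0% of all genes were). Against vector cells with DMSO the median was then −0.05, with 5 higher and 7 lower, and 6 of the 7 that had been at least 2-fold apart were back (34.6% of all genes so far apart were). Hsph1, an HSP110 nucleotide exchange factor, read 238, 242 and 248 CPM in F133V cells with olaparib, 797, 816 and 805 CPM in F133V cells with DMSO and 301, 295 and 301 CPM in vector cells with DMSO (−0.30 ± 0.02 with the drug). Hsp90aa1, the inducible HSP90, was 1.16-fold higher with the drug and Hspa1b, the inducible HSP70, 1.5-fold higher, from gaps of 1.03 ± 0.02 and 2.51 ± 0.04.

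Several single genes with large gaps also came within 1.5-fold of the vector level. Ccnd1, cyclin D1 of the G1 phase, read 332, 334 and 331 CPM in F133V cells with olaparib, 91.6, 98.6 and 94 CPM in F133V cells with DMSO and 479.9, 487 and 473 CPM in vector cells with DMSO, which left 1.45-fold (−0.53 ± 0.02). Fn1, the matrix protein fibronectin, read 3701, 3759 and 3739.9 CPM in F133V cells with olaparib, 1395, 1420.1 and 1382 CPM in F133V cells with DMSO and 4274, 4209 and 4272 CPM in vector cells with DMSO (−0.19 ± 0.02). Cd47, the surface signal that restrains phagocytosis by macrophages, was 1.28-fold lower with the drug after a gap of −2.01 ± 0.03. In each of these genes the F133V libraries with olaparib stayed below all vector libraries, by less than 1.5-fold.

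**Figure D3:**
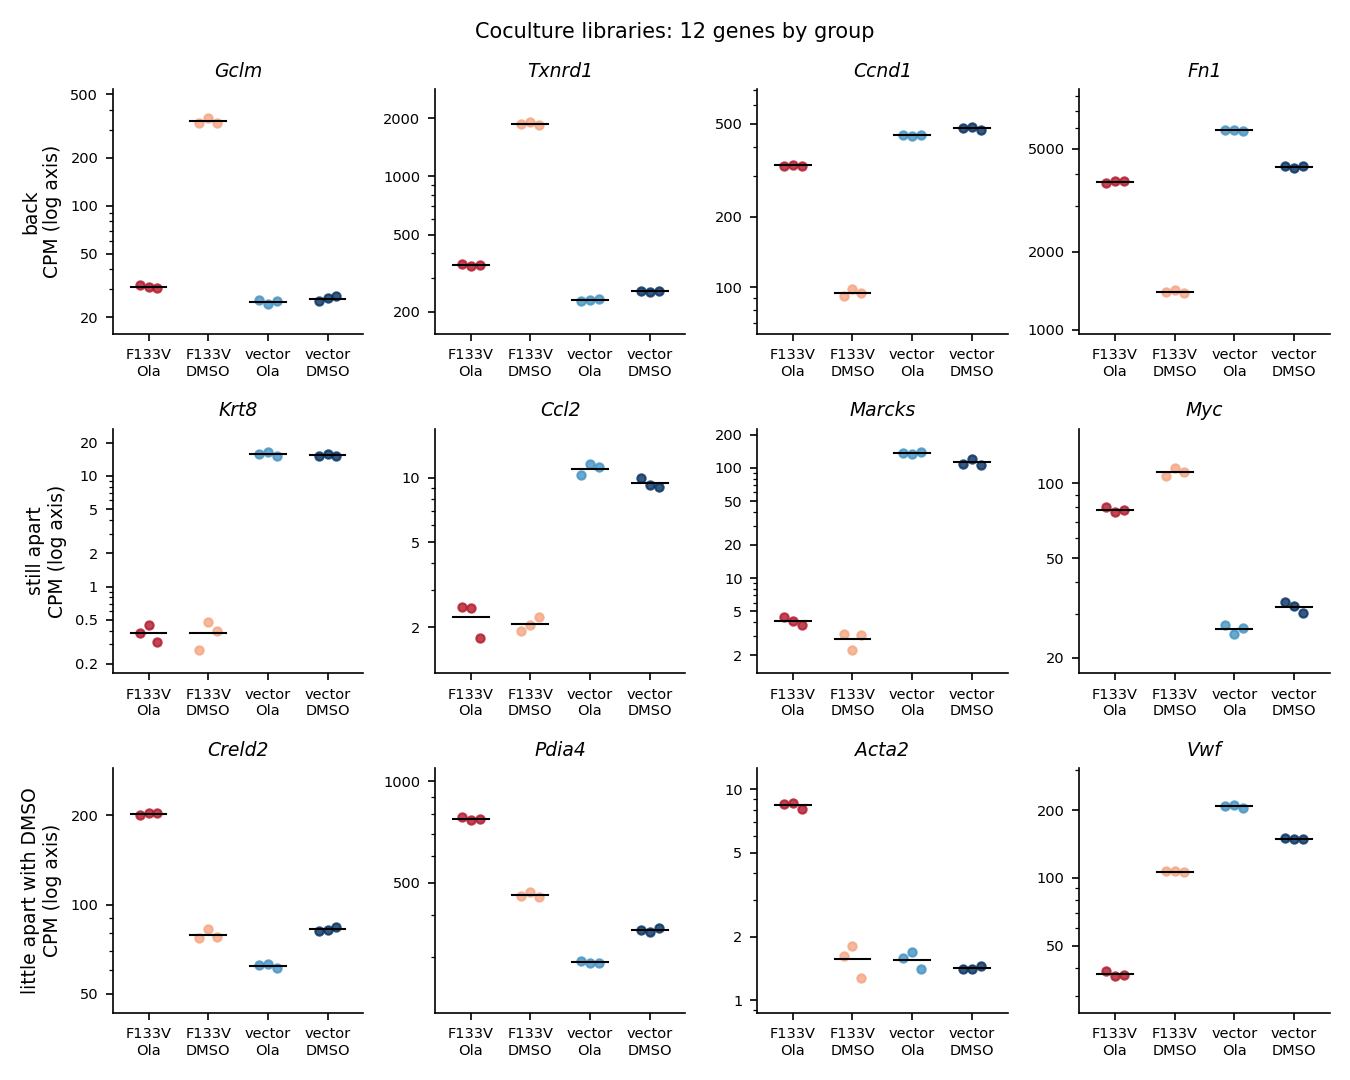
CPM (y axes, log scale) of 12 genes in the 12 coculture libraries (points; lines, means of 3) of F133V cells with olaparib, F133V cells with DMSO, vector cells with olaparib and vector cells with DMSO. Genes of the top row came back to the vector level (Gclm, 31.2 ± 0.505 CPM in F133V cells with olaparib against 26.3 ± 0.866 in vector cells with DMSO), those of the middle row stayed apart (Krt8, 0.38 ± 0.0663 against 15.4 ± 0.398) and those of the bottom row were little apart without the drug (Creld2, 203 ± 1.88 against 82.7 ± 1.21).

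Sterol synthesis genes came part of the way. All 25 tested genes of sterol synthesis and uptake were lower in F133V cells before the drug (42.0% of all genes were), with a median of −1.57. With olaparib 21 were still lower than in vector cells with DMSO (29.9% of all genes were) and 2 higher, with a median of −0.54. Of the 20 that had been at least 2-fold apart, 7 were back, close to the share among all genes so far apart, 7 were part way and 6 still apart. Insig1, the sterol-controlled anchor of SREBP2's escort protein, read 129.5, 128 and 129 CPM in F133V cells with olaparib, 42.9, 47.4 and 47.5 CPM in F133V cells with DMSO and 203, 207 and 208 CPM in vector cells with DMSO (1.6-fold lower).

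Dhcr7, the reductase of the last step of cholesterol synthesis, was at −1.03 ± 0.05 from a gap of −3.46 ± 0.09. Fatty acid synthesis had 12 of 14 genes lower and 2 higher (median −0.34, from −1.16), and of the 8 that had been at least 2-fold apart 6 were back, beside 34.6% of all genes so far apart, and 2 still apart. Scd1, the desaturase that makes oleate, was back at −0.45 ± 0.02 from −1.90 ± 0.02, whereas the elongase Elovl6 was 2.24-fold lower (−1.16 ± 0.03) and Fasn, fatty acid synthase, 1.35-fold lower.

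Antigen presentation genes were mostly below the vector level. Of 11 tested genes of MHC class I and peptide loading, 9 were lower and 1 higher in F133V cells with olaparib (median −0.55, from −1.23), beside 29.9% and 28.6% of all genes. Of the 8 that had been at least 2-fold apart, 2 were back, 2 part way, 3 still apart and 1 unresolved. The class I heavy chain H2-D1 read 87.4, 86.8 and 81 CPM in F133V cells with olaparib, 55.3, 59.9 and 56.2 CPM in F133V cells with DMSO and an average of 135 ± 0.914 CPM in vector cells with DMSO (SD, n = 3; 1.58-fold lower, adjusted p = 5.8e-21). H2-K1 was 1.33-fold lower, H2-T23, which encodes the nonclassical ligand Qa-1, 2.14-fold lower, and B2m, the shared light chain, 1.47-fold lower. Nlrc5, the activator of class I genes, was at −1.82 ± 0.15 and had not detectably moved with the drug (0.16 ± 0.19).

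Ccl2, the chemokine that draws monocytes, read 2.48, 2.47 and 1.79 CPM in F133V cells with olaparib, 1.92, 2.06 and 2.24 CPM in F133V cells with DMSO and 9.93, 9.29 and 9.08 CPM in vector cells with DMSO. The deficit was 4.21-fold (−2.07 ± 0.12, adjusted p = 1.1e-18), with no overlap. Csf1, the growth factor of macrophages, was higher instead, at 196, 195 and 198 CPM in F133V cells with olaparib and 112, 117 and 116 CPM in vector cells with DMSO (1.71-fold, adjusted p = 4.1e-25), and so was Ptgs2, the inducible cyclooxygenase, at 1059, 1049 and 1064 CPM in F133V cells with olaparib, 3668, 3730.2 and 3836 CPM in F133V cells with DMSO and 531, 568 and 553 CPM in vector cells with DMSO (1.92-fold). Cd274, the checkpoint ligand PD-L1, was higher by 0.32 ± 0.08 on the log2 scale. The costimulatory ligand Cd80 was 8.12-fold lower, at 0.394 ± 0.127 CPM in F133V cells with olaparib and 3.25 ± 0.14 CPM in vector cells with DMSO (SD, n = 3 each). Over 21 tested NF-κB targets, 5 were higher and 13 lower, beside 28.6% and 29.9% of all genes. Ccl5 did not pass the test (0.25 ± 0.52), and Il6 and Cxcl10 were too low to be tested.

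Genes of the axis of STAT3 and the receptor chain gp130 were split, 6 higher and 6 lower of 15 tested (median −0.08). Stat3 read 81.7, 79.7 and 77.4 CPM in F133V cells with olaparib, 126, 131 and 126 CPM in F133V cells with DMSO and 141, 137 and 139.9 CPM in vector cells with DMSO, a fall of −0.68 ± 0.03 with the drug in F133V cells that left it 1.75-fold lower than in vector cells (−0.81 ± 0.03, adjusted p = 1.2e-23). In vector cells olaparib moved it the other way (0.23 ± 0.03), and the difference between the 2 responses passed the test (−0.91 ± 0.04, adjusted p = 6e-21). Osmr and Lifr, receptors for oncostatin M and LIF, were 4.46-fold and 2.15-fold lower, and Cebpd, a factor that STAT3 induces, 3.04-fold lower. Il6st, the gene of gp130, was higher (0.34 ± 0.02, adjusted p = 6.8e-16).

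Genes of DNA replication were lower as a group, and this was little different without the drug. Of 37 tested genes, 35 were lower and 1 higher in F133V cells with olaparib, beside 29.9% and 28.6% of all genes (median −0.67), while the median before the drug was −0.61 and the effect of olaparib on F133V cells −0.09. Rrm1, the large subunit of ribonucleotide reductase, read 34, 34.8 and 35.9 CPM in F133V cells with olaparib, 29.7, 28.7 and 27.3 CPM in F133V cells with DMSO and 67.9, 69 and 65.3 CPM in vector cells with DMSO (1.93-fold lower, adjusted p = 3.5e-23). The helicase subunits Mcm3 and Mcm6 were 1.53-fold and 1.67-fold lower. The near-constant median hid opposite movements. Pcna, the sliding clamp, read 59, 55.2 and 58.5 CPM in F133V cells with olaparib, 141, 150.1 and 146 CPM in F133V cells with DMSO and 83.1, 80.9 and 82.5 CPM in vector cells with DMSO, so it crossed from above the vector level to below it (−0.51 ± 0.03), as did Mcm10 (−0.74 ± 0.08, from 0.73 ± 0.07).

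Mitosis genes had narrowed their gap instead. Of 39 tested, 27 were lower and 5 higher, beside 29.9% and 28.6% of all genes (median −0.31, from −0.94), and Mki67, the proliferation marker Ki-67, read 91.5, 93.9 and 97.5 CPM in F133V cells with olaparib, 50.3, 51.7 and 48 CPM in F133V cells with DMSO and 157, 152 and 165 CPM in vector cells with DMSO (1.67-fold lower). Homologous recombination and Fanconi genes, on which the response to PARP inhibitors depends, were lower in 28 of 44 and higher in 3, beside the same shares of all genes (median −0.32, from −0.71). Rad54l, a motor protein of homologous recombination, was 2.41-fold lower, at 3.46, 3.45 and 3.33 CPM in F133V cells with olaparib, 1.14, 1.56 and 1.32 in F133V cells with DMSO and 8.71, 7.63 and 8.37 in vector cells with DMSO. Fancd2, the monoubiquitinated core of the Fanconi pathway, was 1.79-fold higher. Parp1, the main target of olaparib, was near the vector level (0.07 ± 0.03, adjusted p = 0.022, lost in 3 of 17 alternatives) after −0.45 ± 0.03 before the drug, and Parp2 did not pass the test (−0.22 to 0.05).

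Targets of p53 were more often lower than higher, at 16 and 7 of 26, beside 29.9% and 28.6% of all genes (median −0.28, from 0.27 before the drug). Cdkn1a, the cell cycle inhibitor p21, read 262, 257 and 259 CPM in F133V cells with olaparib, 397, 416 and 402 CPM in F133V cells with DMSO and 339.8, 343 and 334 CPM in vector cells with DMSO (−0.39 ± 0.02, adjusted p = 9.1e-17). Eda2r, a TNF receptor family gene that p53 induces, crossed in the same way, at 18.5, 17.2 and 18.1 CPM in F133V cells with olaparib, 72.4, 74.4 and 75.8 CPM in F133V cells with DMSO and 40.2, 40.6 and 39.9 CPM in vector cells with DMSO (2.25-fold lower). Ccng1, cyclin G1, and Phlda3, a repressor of AKT, were 1.83-fold and 1.86-fold lower. Myc, by contrast, stayed high: 80.5, 76.9 and 77.7 CPM in F133V cells with olaparib, 107, 115 and 110.4 CPM in F133V cells with DMSO and 33.3, 32.1 and 30.1 CPM in vector cells with DMSO (2.46-fold higher, adjusted p = 2.1e-24).

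Chaperones of the endoplasmic reticulum and other genes of the unfolded protein response opened a gap with the drug. Of 24 tested genes, 23 were higher (28.6% of all genes were) and 1, Sec61b, was lower in F133V cells with olaparib, with a median of 0.78 against 0.17 before the drug. None had been 2-fold apart before. Hspa5, the master chaperone BiP, read 4861, 4858 and 4942 CPM in F133V cells with olaparib, 3729.6, 3897 and 3764 CPM in F133V cells with DMSO and 2376, 2311 and 2418 CPM in vector cells with DMSO (1.05 ± 0.02, adjusted p = 3.9e-32). Creld2, a secreted factor of the response, read 200.4, 203 and 204 CPM in F133V cells with olaparib, 77.5, 82.7 and 77.6 CPM in F133V cells with DMSO and 81.7, 82.4 and 84 CPM in vector cells with DMSO, a 2.45-fold difference where there had been almost none (−0.06 ± 0.03 before the drug).

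The protein disulfide isomerase gene Pdia4 was 2.13-fold higher and its relative Pdia6 1.8-fold higher. Dnajc3 and Sdf2l1, partners of BiP, were 1.91-fold and 1.83-fold higher and had been lower before the drug (−0.43 ± 0.03 and −0.76 ± 0.04). In F133V cells olaparib raised 20 of the 24 genes (39.3% of all genes rose) and lowered 4. Vector cells answered the drug in the opposite direction: 23 of the 24 genes were lower in vector cells with olaparib than with DMSO (10.9% of all genes were) and none was higher, with a median of −0.25. The difference between the 2 responses was called for 20 of the 24, all toward F133V cells (35.4% of all genes were called that way). In monoculture F133V cells with olaparib also had 23 of the 24 genes higher than vector cells with DMSO (32.2% of all genes were), with a median of 0.61.

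The endoplasmic reticulum stress element was searched as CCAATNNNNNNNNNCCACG on either strand of the 250 bases before the start. It was found in 8 of the 20 matched members (40%) and in 17 of the 10039 symbols (0.169%). The stretches below belong to members that rose with the drug in F133V cells and fell with it in vector cells. Not every member with the match did so, since another fell with the drug in F133V cells too. The capitals mark the match, which in Creld2 lies on the opposite strand.
Hspa5 (chr2:34772010-34772058, plus strand): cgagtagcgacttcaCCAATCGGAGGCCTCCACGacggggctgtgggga
Creld2 (chr15:88819505-88819553, plus strand): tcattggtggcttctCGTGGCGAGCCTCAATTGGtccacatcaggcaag
Dnajc3 (chr14:118937812-118937860, plus strand): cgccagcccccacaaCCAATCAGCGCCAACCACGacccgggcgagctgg
Pdia6 (chr12:17266476-17266524, plus strand): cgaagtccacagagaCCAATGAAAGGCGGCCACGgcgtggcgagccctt
Syvn1 (chr19:6046517-6046565, plus strand): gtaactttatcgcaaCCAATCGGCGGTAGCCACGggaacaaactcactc
The 5 genes were 2.06, 2.45, 1.91, 1.8 and 1.73-fold higher in F133V cells with olaparib than in vector cells with DMSO, in the order shown. A match of letters is neither a binding site nor a cause.

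The integrated stress response moved less evenly, with 18 of 28 genes higher and 3 lower (median 0.19, from 0.32). Ddit3, the stress factor CHOP, read 651, 659 and 648 CPM in F133V cells with olaparib, 346, 348 and 344 CPM in F133V cells with DMSO and 442, 440.2 and 443 CPM in vector cells with DMSO (0.56 ± 0.02), so it too was above the vector level only with the drug. Slc3a2, the partner chain of several amino acid transporters, stayed 2.35-fold higher and Atf4, the factor at the head of the response, 1.44-fold higher.

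**Figure D4:**
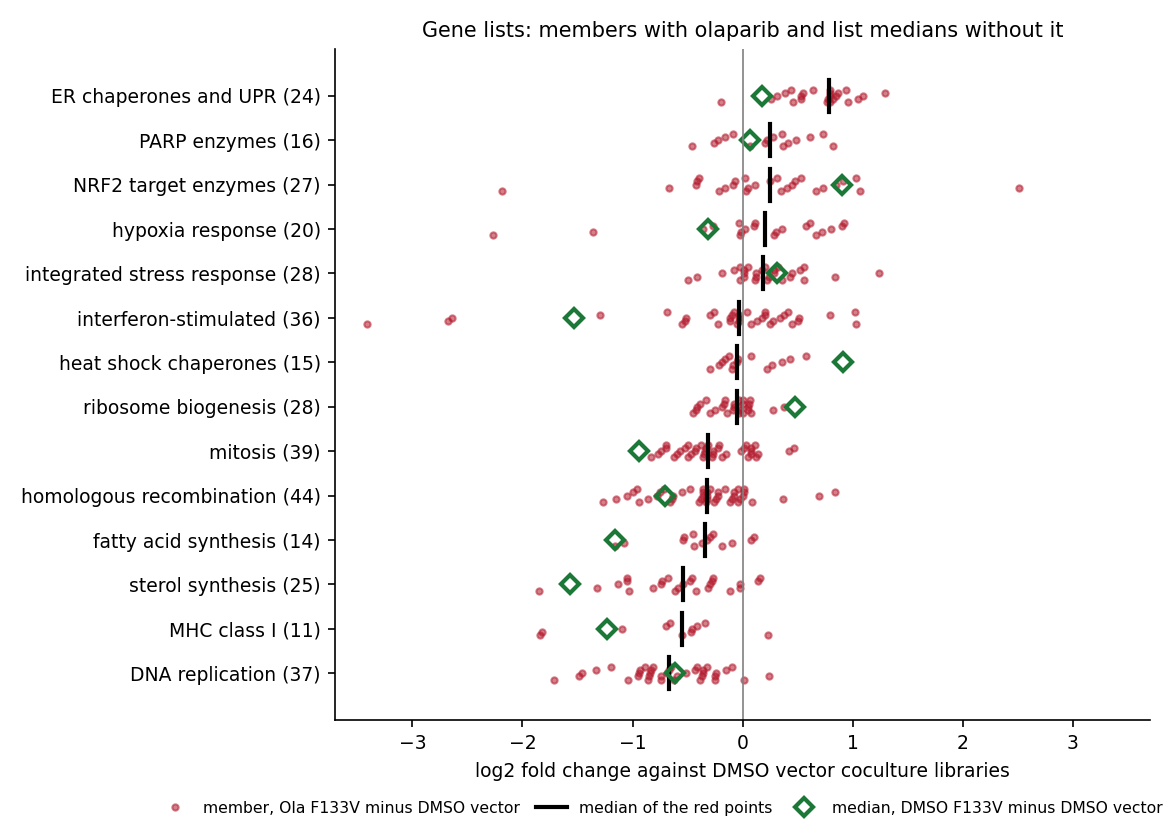
Log2 difference from vector cells with DMSO (x axis) for the tested members of a selection of the gene lists. Red points are members in F133V cells with olaparib, and black bars are their medians. Green diamonds are list medians in F133V cells with DMSO. Medians of the sterol and interferon-stimulated lists moved toward 0 with the drug, at −0.54 and −0.03, while that of the unfolded protein response list moved to 0.78.

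Targets of hypoxia signalling were higher in 11 of 20 and lower in 4 (median 0.20, from −0.31). Slc2a3, the high-affinity glucose transporter GLUT3, read 391, 384 and 383 CPM in F133V cells with olaparib, 109, 113 and 109 CPM in F133V cells with DMSO and 149.6, 151 and 149.9 CPM in vector cells with DMSO, 2.57-fold higher with the drug after −0.45 ± 0.03 before it. Mxi1, an antagonist of MYC, and Ero1l, the oxidase of the endoplasmic reticulum, were 1.9-fold and 1.74-fold higher. Car9, carbonic anhydrase 9, went against them at 3.71, 2.63 and 3.74 CPM in F133V cells with olaparib and 8.84, 8.12 and 8.91 CPM in vector cells with DMSO (2.57-fold lower). Genes of glucose transport and glycolysis were mostly lower, 18 of 23 with 5 higher, Slc2a3 among the higher ones. The enzyme genes Eno1 and Pgk1 were 1.4-fold and 1.35-fold lower.

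Beyond Nqo1, Creld2, Pdia4 and Slc2a3, the 60 genes that were apart only with the drug included cytoskeletal and matrix genes. Acta2, smooth muscle actin, read 8.57, 8.62 and 8.06 CPM in F133V cells with olaparib, 1.62, 1.81 and 1.28 CPM in F133V cells with DMSO and 1.4, 1.4 and 1.45 CPM in vector cells with DMSO (5.93-fold higher, adjusted p = 1e-20). Gas1, a growth arrest gene and hedgehog coreceptor, read 47.9, 44.7 and 41.7 CPM in F133V cells with olaparib and 9.73, 11.1 and 10.1 CPM in vector cells with DMSO (4.33-fold higher), and Sparc, a collagen-binding matrix protein, was 2.24-fold higher. Dusp5, a nuclear phosphatase of ERK, was 2.46-fold higher, and Ikbke, a kinase of innate immunity, 2.07-fold higher. Vwf, von Willebrand factor, opened in the other direction, at 38.6, 36.8 and 37.2 CPM in F133V cells with olaparib, 107, 107 and 106 CPM in F133V cells with DMSO and 149.8, 149 and 149 CPM in vector cells with DMSO (3.98-fold lower). Vwf is best known from endothelium, and the 8 endothelial markers together summed to 37.4 to 39.4 CPM in F133V cells with olaparib and 149 to 150.2 CPM in vector cells with DMSO, nearly all of it Vwf.

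Of the 109 genes that passed the vector level, Selenbp1, which encodes a selenium-binding protein, read 17.3, 17.7 and 17.8 CPM in F133V cells with olaparib, 1.02, 0.807 and 0.605 CPM in F133V cells with DMSO and 8.76, 10 and 9.22 CPM in vector cells with DMSO (1.88-fold higher). Lgr6, a receptor for R-spondins, was 2.15-fold higher after −2.12 ± 0.11 before the drug. Smtnl2, a smoothelin-like gene, was 1.76-fold higher after −2.95 ± 0.19. In all 3 genes the F133V libraries with olaparib lay above every vector library.

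Among the deepest remaining deficits were genes already far below the vector level before the drug, at −5.33 for Krt8, −5.33 for Marcks, −3.38 for Prkcb, −6.09 for Nefl and −4.94 for Dpt on the log2 scale. Krt8 read 0.379, 0.446 and 0.314 CPM in F133V cells with olaparib, 0.269, 0.473 and 0.392 CPM in F133V cells with DMSO and 15, 15.8 and 15.3 CPM in vector cells with DMSO, 40.1-fold lower (−5.33 ± 0.20, adjusted p = 7.8e-31). Krt18, the partner with which it forms filaments, was instead 1.45-fold higher, at 116, 112 and 113 CPM in F133V cells with olaparib, 365, 385 and 358 CPM in F133V cells with DMSO and 77.5, 79.6 and 78.2 CPM in vector cells with DMSO. Marcks, an actin-binding substrate of protein kinase C, read 4.47, 4.11 and 3.74 CPM in F133V cells with olaparib and 108, 121 and 107 CPM in vector cells with DMSO (27.4-fold lower), and Prkcb, a protein kinase C gene, 1.57, 1.53 and 1.83 CPM against 43.7, 40 and 39.4 CPM (25-fold lower). Nefl, the light neurofilament, and Dpt, the matrix protein dermatopontin, were 21-fold and 39.8-fold lower.

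Among the largest rises, Col6a3, a chain of collagen VI, read 406, 404 and 407 CPM in F133V cells with olaparib, an average of 135 ± 3.07 CPM in F133V cells with DMSO (SD, n = 3) and 20.2, 20.6 and 23.3 CPM in vector cells with DMSO, so the drug widened its gap to 19-fold (4.25 ± 0.04, adjusted p = 3.9e-45). Slc2a5, the fructose transporter, read 210.0, 205 and 208 CPM in F133V cells with olaparib and 15.9, 15.8 and 15.2 CPM in vector cells with DMSO (13.3-fold higher). Krt15, a basal keratin, read 79.3, 79.3 and 75.5 CPM in F133V cells with olaparib, 11.9, 12.7 and 11.8 CPM in F133V cells with DMSO and 7.51, 7.33 and 7.34 CPM in vector cells with DMSO (10.5-fold higher). The transcription factor genes Tbx1 and Tfap2c were 22.2-fold and 17.2-fold higher, both under 1 CPM in vector cells.

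Collagens divided. Of 15 tested, 6 were higher and 6 lower, and of the 11 that had been at least 2-fold apart 5 were still apart and 1 was back. Col3a1, of fibrillar collagen III, read 153, 159 and 153 CPM in F133V cells with olaparib, 36.2, 36.6 and 34.2 CPM in F133V cells with DMSO and 305, 315 and 309 CPM in vector cells with DMSO (2-fold lower). Col6a1, another chain of collagen VI, was 2.32-fold lower while Col6a3 was higher, and Col4a1, of basement membranes, was 1.78-fold higher. Among 27 matrix genes 12 were higher and 13 lower: the proteoglycan gene Bgn and the laminin gene Lamb1 were 2.9-fold and 2.39-fold higher, and the protease inhibitor gene Serpine2 2.8-fold lower.

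Rn7sk, the 7SK RNA that sequesters P-TEFb, an elongation factor, read 31.6, 29.4 and 32.4 CPM in F133V cells with olaparib, 262, 281 and 258 CPM in F133V cells with DMSO and 11.9, 11.4 and 10.4 CPM in vector cells with DMSO. It fell by most of its gap and remained 2.75-fold higher (1.46 ± 0.06, adjusted p = 6.5e-23). The structural RNA sum was also higher in F133V cells with olaparib than in vector cells with DMSO, but that sum includes Rn7sk itself. Ccnt1, the cyclin of P-TEFb, was back at 0.38 ± 0.03 from 2.08 ± 0.03, whereas Larp7, which stabilises the RNA, was 1.59-fold lower.

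Some genes that separated the 2 groups changed with the drug in both genotypes. Ptgds, a prostaglandin D synthase, read 17.7, 18.6 and 16.8 CPM in F133V cells with olaparib, 2.78, 2.81 and 2.21 CPM in F133V cells with DMSO, 15.9, 16 and 16.1 CPM in vector cells with olaparib and 1.91, 1.96 and 2.5 CPM in vector cells with DMSO. It was 8.38-fold higher in the comparison of F133V cells with olaparib and vector cells with DMSO, 6.74-fold higher with the drug in F133V cells and 7.58-fold higher with it in vector cells. In vector cells olaparib changed 3765 genes (23.6%), 125 of them (0.783% of all) by at least 2-fold. A change in either direction was called in vector cells for 34 of the 60 genes apart only with the drug (56.7%) and for 596 of the 1730 genes back (34.5%). These counts do not show a shared response. Creld2 and Pdia4, among the 60, rose with the drug in F133V cells and fell with it in vector cells. With vector cells that also had olaparib as the end level, 31.5% of the 5005 genes were back and 21.9% still apart.

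The same 2 groups without macrophages gave fold changes from other libraries, though the shared fit used them for the spread; fitted on the coculture groups alone, 1744 genes were back and 906 still apart. There, 10166 genes (63.7%) were called between F133V cells with olaparib and vector cells with DMSO, and 2029 (12.7%) were at least 2-fold apart. Of the 2536 genes (15.9%) at least 2-fold apart before the drug in monoculture, 33 (1.3%) were back, 501 (19.8%) part way and 1654 (65.2%) still apart, and none had gone past. The genes still apart in coculture were at least 2-fold apart in the same direction in these monoculture libraries in 676 of 946 cases (71.5%), and the genes back in coculture in 102 of 1730 (5.9%). Of the 1730 genes back in coculture, only 254 had been at least 2-fold apart in the same direction in monoculture before the drug, against 726 of the 946 still apart. The 2 shares therefore do not separate the drug's step from the starting gap. Of those 254, 15 (5.91%) were back and 100 (39.4%) still apart in monoculture with the drug.

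Testing the difference between the 2 culture conditions, 6806 genes (42.6%) were called, 3218 (20.2%) with the coculture difference higher and 3588 (22.5%) with it lower. The sterol list had 23 of 25 genes with a higher value in coculture and none lower, with medians of −0.54 in coculture and −1.58 in monoculture. Genes of mitosis had 37 of 39 higher, with medians of −0.31 in coculture and −0.95 in monoculture. Genes of replication were split, 9 higher and 8 lower of 37, with medians of −0.67 in coculture and −0.53 in monoculture. Fn1, back in coculture at −0.19 ± 0.02, was at −1.47 ± 0.02 in monoculture (2927 ± 61.4 CPM in F133V cells with olaparib against 8094 ± 84.3 CPM in vector cells with DMSO, SD, n = 3 each). The difference was smaller in coculture than in monoculture for Csf1 (0.77 ± 0.03 in coculture, 1.86 ± 0.03 in monoculture, adjusted p = 2.8e-24) and Myc (adjusted p = 1.2e-20). Hspa5 was at 1.05 ± 0.02 in coculture and 1.12 ± 0.02 in monoculture, with a 95% interval of −0.13 to −0.01 for the change between them.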

How the data were processed

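The authors deposited raw counts, 1 file per library, of reads per gene for 46078 genes in 36 libraries, with no normalization. Per the submitters' processing notes the build was GRCm38 and the tools included STAR, TopHat, HTSeq and DESeq2, with no roles or versions. Neither the aligner behind these counts nor the strand setting is stated there. Groups came from the labels. Of all counted reads in the 6 main libraries, 18.0% to 20.1% fell in no gene and stayed out of library sizes. No 2 libraries of a group held identical values.

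All 24 cancer libraries (8 groups of 3) were fitted together in edgeR 4.0.16 under R 4.3.3: filterByExpr at a minimum count of 10, TMM scaling (factors 0.8491 to 1.056) and the quasi-likelihood F test with Benjamini-Hochberg adjustment over 15962 genes within each of 10 comparisons (residual degrees of freedom 16, biological coefficient of variation 2.61%). The comparisons within coculture share libraries. An SE is the Wald standard error from the fitted model, computed separately from the F test. The median ratio of this SE to the absolute log2 fold change over the square root of its F was 1.011. Position between groups used log2(CPM + 0.5). Figures were drawn with matplotlib 3.10.9.

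The members and the 42 gene lists were chosen with earlier results of these data known. Named are genes of a fixed set, the 10 largest rises and 10 largest falls (at least 5 CPM in the higher group, no overlap), up to 6 per class and up to 4 per list by adjusted p, leaving out model names; not all of these are described. Chosen after their values were seen were Car9, Ddx58, Dhcr7, Dnajc3, Epsti1, Gsr, H2-T23, Hsf1, Hspd1, Hspe1, Il6st, Irf9, Mcm10, Nlrc5, Oas2, Oasl1, Oasl2, Parp14, Pcna, Pdia6, Sdf2l1, Sec61b, Syvn1 and Txnrd1. Counts are uncertain, with no strand setting known, where exons of 2 genes overlap, as in 40 of the 135 named: Arntl, Car9, Ccnd1, Ccnt1, Cd274, Cdkn1a, Cebpd, Col3a1, Col4a1, Ddit3, Dkc1, Dusp5, Elovl6, Ephx1, Fancd2, Fn1, Gas1, Gclm, Gnl3, Hspd1, Hspe1, Ikbke, Irf7, Irf9, Keap1, Krt8, Mafg, Mxi1, Ndufa4l2, Nefl, Nlrc5, Oasl1, Parp1, Parp14, Pdia4, Pdia6, Rad54l, Sqstm1, Stat3 and Syvn1. Replicate numbers did not pair libraries (correlations of deviations −0.0456 to 0.0431 in coculture). The procedure was tested on simulated data. Of 4646 genes set to the vector DMSO level, 61.3% were classed back and 0% still apart. Of 394 genes left at the F133V DMSO level, 98% were classed still apart and 0% back. These 394 were drawn only from genes with a gap beyond the 2-fold limit and above a minimum expected count in vector cells. The 98% therefore does not cover genes near that limit or with the lowest counts. Alternatives tried were DESeq2 1.42.0, RLE scaling, library size alone, no filter, fewer groups in the fit, a replicate block, structural RNA removed, each library left out, other class widths and another end level. Promoters came from a RefSeq table (GRCm38.p6).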

Additional observations from a re-analysis of the deposited data

Results flagged for a closer look

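The comparison of F133V cells with olaparib and vector cells with DMSO differed between coculture and monoculture for 6806 genes by the interaction test. Among the genes picked by the naming rule that had at least 0.5 CPM in every group of that test and at least 5 CPM in one, the 10 with the largest difference are given here, as coculture minus monoculture on the log2 scale.

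Abca1, the cholesterol exporter, differed by 3.58 ± 0.20 (adjusted p = 2.4e-19): it was at −1.71 in coculture and −5.28 in monoculture. Collagen genes were further from the vector level on the low side in monoculture for Col3a1 (difference 2.25 ± 0.03, adjusted p = 8.1e-36) and further above it in coculture for Col6a3 (2.06 ± 0.05, at 4.25 in coculture and 2.19 in monoculture). Slc2a3, the glucose transporter, was on opposite sides of the vector level, at 1.36 in coculture and −0.82 in monoculture (2.19 ± 0.04, adjusted p = 7.8e-34), and so was Smtnl2, at 0.82 in coculture and −1.18 in monoculture (2.00 ± 0.14). Aldoc, a glycolytic aldolase, differed by 2.17 ± 0.09 (−0.72 in coculture, −2.90 in monoculture). Ndufa4l2, a mitochondrial protein gene that hypoxia induces, differed by 2.34 ± 0.22 (adjusted p = 7.5e-12). Igfbp5, an IGF-binding protein gene, differed by 2.25 ± 0.22 (−3.15 in coculture, −5.40 in monoculture). Enpp1, which degrades the STING ligand cGAMP, differed by 2.14 ± 0.19 (−1.51 in coculture, −3.65 in monoculture). Atp13a4, a P5-type ATPase gene, was apart in coculture at −1.90 and near 0 in monoculture at 0.06 (difference −1.96 ± 0.17).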

How the results depend on the processing

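The count of genes called between F133V cells with olaparib and vector cells with DMSO, 9339, was 8704 to 9546 over the alternatives, and 8704 to 9368 with 1 library left out. The share of called genes that were higher, 48.9%, was 41.5% under library size alone and 51.3% in DESeq2. The library-size scaling moved the median over all genes by −0.047 in this comparison and by −0.253 between the DMSO groups. The replicate block, tried although the numbers do not pair libraries, gave 9367 called genes. The class counts rest on their widths. Under a narrower limit on the interval, 801 genes were back and 1489 part way; within 2-fold, 2851, 286 and 840 unresolved. From a starting gap of 1.5-fold (8150 genes), 4010 were back, 189 past and 126 widened. From 4-fold (1674 genes), 156 were back, 28 past, 270 not moved, 29 widened, 280 part way and 528 unresolved. Without a filter on low counts 2034 were unresolved. With each library left out in turn, 1622 to 1763 genes were back, 928 to 966 still apart, 100 to 119 past, 890 to 925 part way, 1321 to 1562 unresolved and 49 to 61 apart only with the drug, and 6352 to 6787 differed between culture conditions. For 135 named genes and 17 alternatives each, no called difference reversed. The calls lost were 12 for Ddx58, 7 for Irf7, 4 for Parp14 and 3 for Parp1. With 1 library left out, Irf7 lost its call without F133V olaparib replicate 1 (0.31) or 2 (0.17) or vector DMSO replicate 2 (0.25) or 3 (0.27), Parp14 without F133V olaparib replicate 1 (0.19) or vector DMSO replicate 1 (0.18) or 2 (0.20), and Parp1 without F133V olaparib replicate 2 (0.06) or vector DMSO replicate 2 (0.05). Ddx58 lost it without F133V olaparib replicate 2 or 3, vector DMSO replicate 1 or 3, or any F133V DMSO library. Depth limited low genes most, the median unresolved gene standing at 0.681 CPM in its highest group.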

Other observations

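Clock genes and their BHLHE repressors were mostly higher in F133V cells with olaparib, 12 of 15 tested with 2 lower, beside 28.6% and 29.9% of all genes (median 0.40 against 0.73 before the drug). Of the 10 that had been at least 2-fold apart with DMSO, 8 were back, beside 34.6% of all genes so far apart. Nr1d2, the repressor REV-ERBβ, read 91.9, 93.1 and 91.9 CPM in F133V cells with olaparib, 277, 278 and 295 CPM in F133V cells with DMSO and 68.9, 73.8 and 66.5 CPM in vector cells with DMSO (0.40 ± 0.04). Arntl, the clock activator BMAL1, was 1.38-fold higher with the drug.

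Ribosome biogenesis genes had been higher in F133V cells before the drug (26 of 28, median 0.48), beside 37.4% of all genes. Against vector cells with DMSO 3 were higher and 14 lower with the drug (median −0.06), beside 28.6% and 29.9% of all genes. Gnl3, nucleostemin, read 116, 113 and 118 CPM in F133V cells with olaparib, 247, 263 and 252 CPM in F133V cells with DMSO and 89.6, 86.5 and 90 CPM in vector cells with DMSO, and Dkc1, the pseudouridine synthase dyskerin, was 1.37-fold lower with the drug. Among genes of PARP enzymes and of enzymes that remove ADP-ribose, listed together, 10 of 16 were higher and 4 lower. The tankyrase gene Tnks2 was 1.53-fold higher and Parp8 1.76-fold higher. Lysosome genes were higher in 14 of 26 and lower in 8, the second share close to that over all genes (28.6% higher, 29.9% lower), led by the acid glucosidase Gaa at 792, 789.9 and 779 CPM in F133V cells with olaparib and 524, 527 and 522 CPM in vector cells with DMSO (1.5-fold higher). Iron handling was split, 7 higher and 7 lower of 18, with the ferritin heavy chain Fth1 1.44-fold higher and the iron-sensing aconitase Aco1 1.51-fold lower.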
